A study of Mus musculus with 2 samples.

Results

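The cells described here are mouse skin keratinocytes that carried transcripts of at least 2 of the 5 genes Krt24, Tgm5, Grem1, Chat and Myoc. Their working name was Krt24 Grem1 outer bulge stem cells, but Krt24 was detected in only 48.3% of them in replicate 1 and 40.8% in replicate 2, and 173 of them lay in a cluster rich in cycling markers, with lower levels of the bulge markers Krt15 and Cd34. They are therefore called Tgm5/Grem1 cells, after the 2 rule genes detected most often. A barcode was kept when it had 1000 genes or more and when mitochondrial genes gave no more than 10% of its unique molecular identifiers (UMIs, counts of individual captured transcripts). A kept cell counted as a keratinocyte when Krt5 and Krt14, the keratins of basal keratinocytes, together reached 2 UMIs. Of 6828 keratinocytes, 429 met the rule, 29 of 3841 in replicate 1 and 400 of 2987 in replicate 2, and the other 6399 (3812 and 2587) served as the comparison. The cells were thus chosen by their own measured UMIs of the 5 rule genes (detected at 1 UMI or more), Krt5 and Krt14.

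The study profiled hair follicle stem cells from mouse skin with the 10x Chromium 3′ kit, version 3. Cells were selected by flow sorting on CD34, a stem cell surface antigen, and on H2BGFP, a histone fused to green fluorescent protein whose K14 promoter is active in basal keratinocytes of skin generally. Both libraries are wild type, strain C57BL/6;CD1, at postnatal day 32, in anagen, when hair grows. There is 1 group and no untreated, mutant or other control group. Nothing in the labels says that the libraries came from separate animals. The p-values below rest on how far the difference between the classes varied between these 2 libraries, which may be technical. They also rest on variability estimated jointly across genes, and they do not measure the spread between animals. Values of both libraries are written with replicate 1 first.

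The hair follicle bulge is the niche that keeps the stem cells of the follicle between growth phases. Its outer layer sits on the basement membrane, carries CD34 and keratin 15 and is slow to divide, while its inner layer is made of keratin 6 cells that hold the club hair. Outer bulge cells secrete BMP and WNT modulators and matrix proteins that anchor nerve endings and the arrector pili muscle to the follicle. Foxc1 and Nfatc1 are transcription factors known to keep these stem cells quiescent.

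The 5 rule genes have different roles. Krt24 (chr11:99279959-99285262, minus strand, GRCm38) encodes a type I keratin, and Tgm5 (chr2:121046111-121085841, minus strand) a transglutaminase that cross-links proteins of the cornified layer. Grem1 (chr2:113746164-113758646, minus strand) encodes a secreted BMP antagonist. Chat (chr14:32408203-32465989, minus strand) encodes the enzyme that makes acetylcholine, and Myoc (chr1:162639155-162649693, plus strand) encodes the secreted glycoprotein myocilin, known from the drainage tissue of the eye. All are protein-coding in GENCODE M21.

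The 250 bases before the RefSeq start of Krt24, the rule gene that also led its cluster by fold, are shown because the transcripts of Nfatc1, Foxc1 and Lhx2 were higher in Tgm5/Grem1 cells (below). The stretch is chr11:99285263-99285512 on the minus strand of GRCm38.p6, and capitals mark the only match to the searched motifs.
Krt24: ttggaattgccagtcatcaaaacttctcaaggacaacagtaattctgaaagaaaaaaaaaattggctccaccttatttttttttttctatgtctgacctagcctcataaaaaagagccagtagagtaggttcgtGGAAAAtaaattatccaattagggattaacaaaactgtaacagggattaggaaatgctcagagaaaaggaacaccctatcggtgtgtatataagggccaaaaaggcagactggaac
The match is to GGAAAA, the core that NFAT factors bind, and lies 116 to 111 bases before the start. GGAAAA or its reverse complement occurs in 20.4% of the 32851 RefSeq promoter stretches of that length, so a match is common. The same search, on both strands, covered TGTTTAC (FOX factors, in 3.17% of the stretches), CTTTGA (TCF/LEF, 13.8%) and TAATTA (LIM homeobox factors, 4.84%). None of these 4 motifs was in the same window of Tgm5, Grem1, Chat or Myoc, and no overlap between motifs occurred.

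The libraries held 6592 and 5080 barcodes with 52344178 and 38678103 UMIs, of which 3918 and 3041 barcodes were kept. Tgm5/Grem1 cells had medians of 8252 and 10146 UMIs, and other keratinocytes 9955 and 9717. Barcodes found in both libraries numbered 11, and 0 of them were Tgm5/Grem1 cells. The doublet caller made 0 automatic calls in each library, so the 255 and 139 barcodes with the highest doublet scores were taken as candidates, of which 1 and 11 were Tgm5/Grem1 cells. Summed fibroblast markers stood at 14.4 and 13.5 CPM (UMIs scaled to a common total of 1000000 per class and library) in Tgm5/Grem1 cells, with Pdgfra and Lum at 0 in both libraries, against 207 and 285 CPM in other keratinocytes and 32940 and 26096 CPM in kept cells under the Krt5 and Krt14 limit. Summed immune markers stood at 0 and 4.49 CPM in Tgm5/Grem1 cells, with Ptprc and Cd207 at 0 in both, and at 44.3 and 24.4 CPM in other keratinocytes.

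The share of keratinocytes that met the rule differed between the libraries. Replicate 1 had 0.755% (exact 95% Clopper-Pearson interval 0.506 to 1.08). Replicate 2 had 13.4% (12.2 to 14.7), and the mean was 7.07% ± 8.94 (SD, n = 2 libraries). The intervals, which do not overlap, cover counting error only. After each cell was thinned to 5000 UMIs the shares were 0.385% and 8.60%. With at least 3 of the 5 genes required they were 0.208% (8 cells) and 6.29% (188 cells). Both libraries carry the same labels, and what set them apart was not tested.

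Tgm5 and Grem1 carried most of the rule in both libraries. Tgm5 was detected in 79.3% and 96.5% of Tgm5/Grem1 cells, and Grem1 in 72.4% and 83.2%. Krt24 was detected in 48.3% and 40.8% of them, Chat in 27.6% and 29.2% and Myoc in 6.90% and 22.5%. Among other keratinocytes Tgm5 was detected in 0.866% and 7.11%, and the remaining rule genes in 0.0262% to 3.17%. These values chose the cells and are given as a description. Kept cells that were not keratinocytes had medians of 10636 and 11955 UMIs and held Krt24 in 0 of 77 and 0 of 54 cells, so that up to 3.90% and 5.56% of such cells could hold a UMI of it (3 counts of the total), and Tgm5 in 1.30% and 3.70%.

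The most frequent combination was Tgm5 with Grem1 alone, in 10 of the 29 cells of replicate 1 and 156 of the 400 of replicate 2. Replicate 2 held 21 cells with all 5 genes and 59 with 4, and replicate 1 held 0 and 2. At the edge of the rule stood 21 and 212 cells with exactly 2 genes, just inside, and 83 and 314 cells with 1 gene, just outside. Krt15, the keratin used as a bulge marker, was at 13620.2 and 9968 CPM just inside and 6452 and 5905 CPM just outside. Calml3, which encodes a calmodulin-like protein of epithelia, was at 514 and 233 CPM just inside and 203 and 67.1 CPM just outside. Both genes were higher just inside than just outside in both libraries.

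Krt15 was higher in replicate 2 at each step in the number of rule genes detected. It stood at 3869 CPM with 0 rule genes, 5905 with 1, 9968 with 2, 19673 with 3 and 25209 with 4 or 5. Cd34, the sorted stem cell antigen, stood at 75.2, 52.7, 132, 355 and 483 CPM in the same order, with the lowest value in cells with 1 rule gene. Mki67, a marker of dividing cells, was highest in cells with 1 rule gene (178 CPM) and lowest in those with 4 or 5 (53.5 CPM). Cells with 1 rule gene had a median of 13987 UMIs and those with 2 had 12340, against 9383 with 0, so the middle of this order held the deepest cells of replicate 2. Outside cluster 5, the cluster rich in cycling markers, lay 1919 of 2118 thinned cells with 0 rule genes in replicate 2. The counts were 104 of 305 with 1, 67 of 204 with 2 and 77 of 101 with 3. With 4 or 5 rule genes they were 68 of 76. The mix of clusters thus changed along this order, and its part in these levels was not tested. In replicate 1 the last 2 steps rest on 6 and 2 cells.

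**Figure D1:**
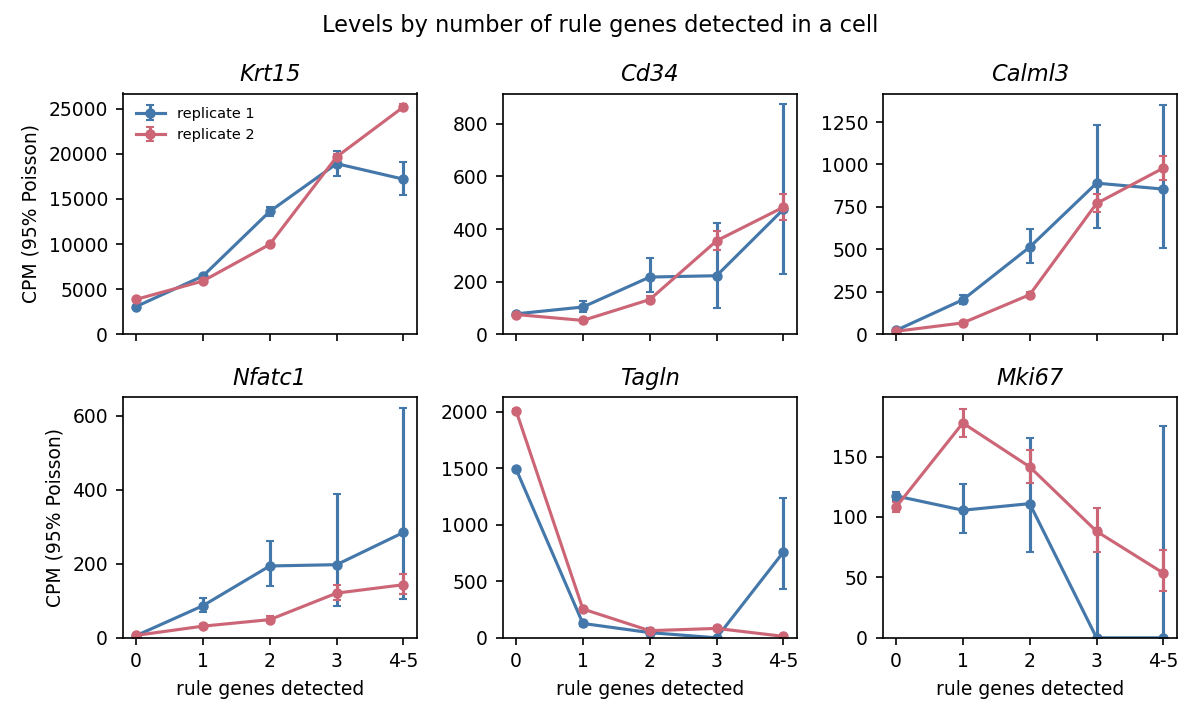
CPM of 6 genes (vertical axis, linear) in keratinocytes with 0, 1, 2, 3 and 4 or 5 rule genes detected (horizontal axis), per library; bars are exact 95% Poisson intervals and cover counting error only. Krt15, Cd34, Calml3 and Nfatc1 are higher with 2 or more rule genes than with 0 in both libraries, and Tagln is lower at every step from 1 upward, with 2 cells behind the last point of replicate 1.

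The keratinocytes were clustered without the 5 rule genes. Of the 429 Tgm5/Grem1 cells, 249 fell into cluster 4, 173 into cluster 5 and 7 into the other 9 of the 11 clusters. Cluster 4, whose leading genes by fold were Krt24, Calml3, Tgm5, Grem1 and Npnt, took 27 of the 29 cells in replicate 1 (93.1%) and 222 of the 400 in replicate 2 (55.5%). Cluster 5, led by Sms, Atp6v1b1, Grb14, Nsg1 and Gm973, took 2 and 171 (6.90% and 42.8%). All 7 cells of the other clusters were from replicate 2. Cluster 4 was of like size in the libraries, 342 and 355 cells, yet Tgm5/Grem1 cells made up 7.89% of it in the first library (95% bounds 5.27 and 11.3). In the second they made up 62.5% (57.3 and 67.6). Cluster 5 held 54 and 578 cells, of which 3.70% and 29.6% were Tgm5/Grem1 cells. Since clustering used the genes of these cells, the levels of the clusters are given as a description.

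**Figure D2:**
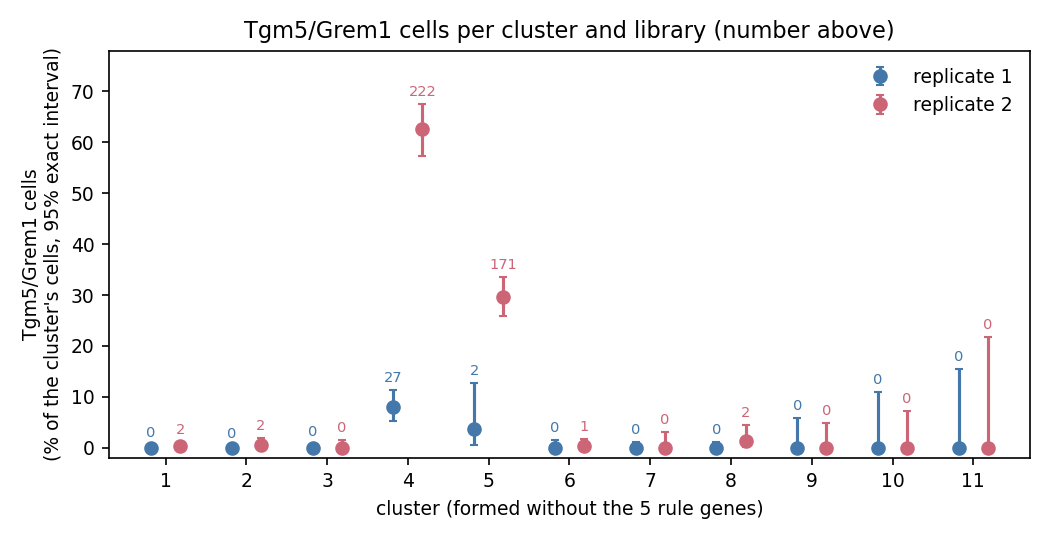
Tgm5/Grem1 cells as a percentage of each cluster's cells (vertical axis) for the 11 clusters (horizontal axis) in both libraries, with exact 95% intervals and the number of Tgm5/Grem1 cells above each point. Clusters 4 and 5 hold nearly all of them, and in cluster 4 replicate 2 lies at 62.5% and replicate 1 at 7.89%.

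Tgm5/Grem1 cells of the 2 clusters had unlike profiles. In replicate 2, Krt15 stood at 25623 CPM in those of cluster 4 and 7822 CPM in those of cluster 5, and Cd34 at 451 and 107 CPM. Bdnf, which encodes a neurotrophin, stood at 115 and 10.2 CPM. Mki67 ran the other way, at 2.74 CPM in cluster 4 and 188 CPM in cluster 5, as did Top2a, the DNA topoisomerase of dividing cells, at 14.2 and 330.03 CPM. The cells of cluster 5 were also deeper, with medians of 15519 UMIs in its Tgm5/Grem1 cells and 8121 in those of cluster 4.

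Within cluster 5, Tgm5/Grem1 cells and the other cells were close in several genes. In replicate 2 Mki67 stood at 188 CPM in the Tgm5/Grem1 cells and 185 CPM in the rest of the cluster, and Sms, the spermine synthase gene, at 458 and 519 CPM. Krt15 stood at 7822 and 4416 CPM, Cd34 at 107 and 37.7 CPM and Calml3 at 112 and 31.5 CPM. Of the 171 Tgm5/Grem1 cells of cluster 5 in replicate 2, 115 (67.3%) met the rule through Tgm5 and Grem1 alone, and 18.7% held a Krt24 UMI, against 58.6% in cluster 4. Of the Tgm5/Grem1 cells and other cells of clusters 4 and 5 and the other keratinocytes as a whole, the Tgm5/Grem1 cells of cluster 4 had the highest Krt15 and Cd34 in replicate 2. The position of any cell in the outer layer of the bulge was not measured.

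**Figure D3:**
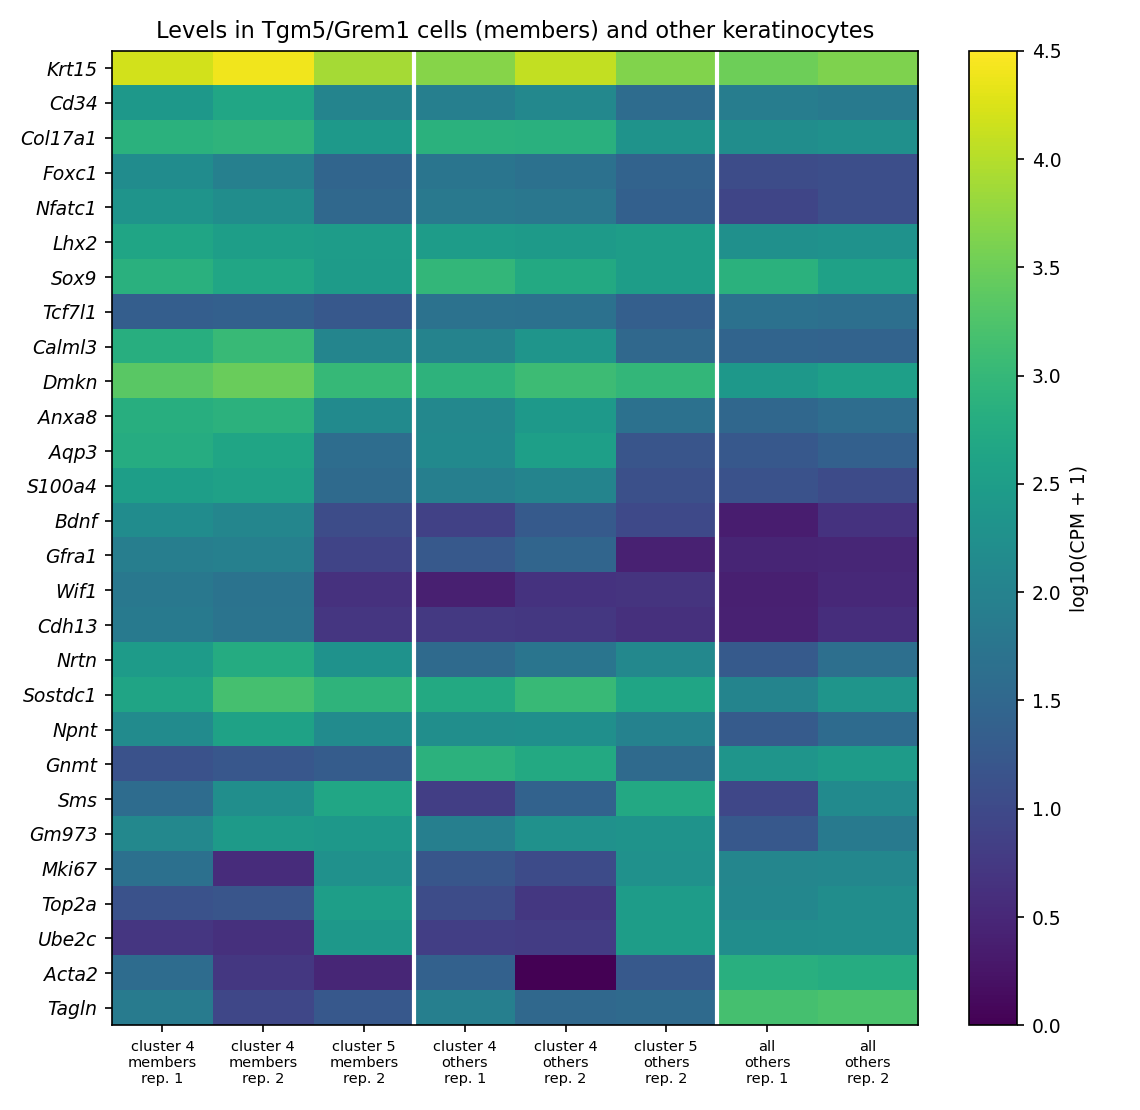
Levels (colour, log10 of CPM + 1) of 28 genes (rows) in Tgm5/Grem1 cells of cluster 4 and cluster 5, in the other cells of those clusters and in all other keratinocytes (columns, by replicate); the 2 Tgm5/Grem1 cells of cluster 5 in replicate 1 are not drawn. Krt15, Cd34, Calml3 and Bdnf are brightest in Tgm5/Grem1 cells of cluster 4, and Mki67, Top2a and Ube2c are bright in both columns of cluster 5.

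To find genes that set Tgm5/Grem1 cells apart from other keratinocytes, the raw UMIs of each class were summed per library and the 4 sums were compared with edgeR's quasi-likelihood test, with the library as a block. Bdnf, Gfra1, Wif1, Calml3 and Aqp3 were among the 12 genes with the largest fold change upward, and Acta2, Gjb2 and Fgf5 among the 12 downward. Of 12909 genes tested, 434 were higher and 753 lower at a Benjamini-Hochberg adjusted p under 0.05, which is 9.20% (3.36% higher, 5.83% lower). The rule genes, Krt5 and Krt14 were left out of the test. The Tgm5/Grem1 sums held 277647 and 4900786 UMIs, so that a single UMI is worth 3.602 CPM in replicate 1, and those of the other keratinocytes 42598126 and 28985176. Of the Tgm5/Grem1 UMIs, cells of cluster 4 gave 240982 and 1825161 and cells of cluster 5 gave 36665 and 2948241. Levels of Tgm5/Grem1 cells below thus come from different mixtures of the 2 clusters in the 2 libraries. What part this had in ratios that differ between the libraries was not tested. Without the cells of cluster 5 the counts were 814 and 1139, with DESeq2 235 and 286, without the library block 213 and 346, and with a mitochondrial limit of 5%, which leaves 3 Tgm5/Grem1 cells in replicate 1, 268 and 467.

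Bdnf (chr2:109674700-109727007) had the largest fold change among the higher genes, at 133 and 49.2 CPM in Tgm5/Grem1 cells and 1.31 and 3.55 CPM in other keratinocytes (log2 fold change 4.999 ± 0.37, SE; adjusted p = 5.12e-38). The difference was larger in replicate 1, with a log2 ratio of 6.67 there and 3.79 in replicate 2. Calml3 (chr13:3802896-3804316) was at 594 and 467 CPM in Tgm5/Grem1 cells and 27.04 and 26.3 CPM in other keratinocytes, and both values of Tgm5/Grem1 cells lay far above both others (log2 fold change 4.297 ± 0.29, adjusted p = 4.11e-46). After thinning, Calml3 was detected in 81.5% and 63.8% of Tgm5/Grem1 cells and in 8.68% and 8.21% of other keratinocytes.

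Gfra1, the receptor for the neurotrophic factor GDNF, stood at 72.03 and 38.6 CPM in Tgm5/Grem1 cells and 1.97 and 2.105 CPM in other keratinocytes, with a log2 fold change of 4.598 ± 0.39. Wif1, a secreted inhibitor of WNT ligands, stood at 54.03 and 22.04 CPM against 1.502 and 2.31 CPM (log2 3.95 ± 0.41). Aqp3, the water and glycerol channel of keratinocytes, stood at 573 and 194 CPM against 16.1 and 23.2 CPM (log2 4.07 ± 0.304). In all 3 genes the groups did not overlap. The genes were chosen for a large difference in the same direction in both libraries, so this adds no support. The remaining 7 were Serpinb11, a serpin (log2 4.81), Pcsk6, a proprotein convertase (4.501), the calcium-binding S100a4 (4.32) and Anxa8 (3.75), Cdh13, which encodes T-cadherin (3.83), the thioesterase gene Them5 (3.81) and Vwa2, which encodes a basement membrane protein (3.79).

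Downward, the 12 genes ranged from log2 -6.17 to -4.54. Acta2, which encodes smooth muscle actin, stood at 32.4 and 15.1 CPM in Tgm5/Grem1 cells and 693 and 617 CPM in other keratinocytes (log2 fold change -5.07 ± 0.33, adjusted p = 9.99e-51). Gjb2, which encodes connexin 26, stood at 86.4 and 23.7 CPM in Tgm5/Grem1 cells and 1369 and 791 CPM in other keratinocytes (log2 -4.63 ± 0.28). Fgf5, the signal known to end anagen in mouse, stood at 0 and 1.02 CPM against 44.9 and 55.8 CPM (log2 -5.85 ± 0.56). In each of these genes no value of Tgm5/Grem1 cells reached the lower value of the other keratinocytes, which the choice of genes favours. Dio3, the deiodinase that inactivates thyroid hormone, was lower (log2 -5.45), as were Foxe1, a forkhead factor (-4.67), Sct, the secretin gene (-5.35), Ggt1 and Slc7a11 of glutathione metabolism (-5.45 and -4.99), Pdpn, which encodes podoplanin (-4.62), the formin gene Fhod3 (-4.56) and Olfml2b (-4.54). The collagen gene Col3a1 had the most negative value (-6.17), and the fibroblast markers moved with it. The other keratinocytes included cluster 11, 22 and 15 cells led by Col3a1, Col1a1 and Col1a2, with 0 Tgm5/Grem1 cells. Slc7a11, Ggt1 and Fgf5 were among the leading genes of cluster 6, which held 236 and 316 cells, of which 0 and 1 were Tgm5/Grem1 cells. What part of the levels in other keratinocytes came from cluster 6 was not tested. Without any cell holding a UMI of the fibroblast collagens, 439 genes were higher and 718 lower.

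**Figure D4:**
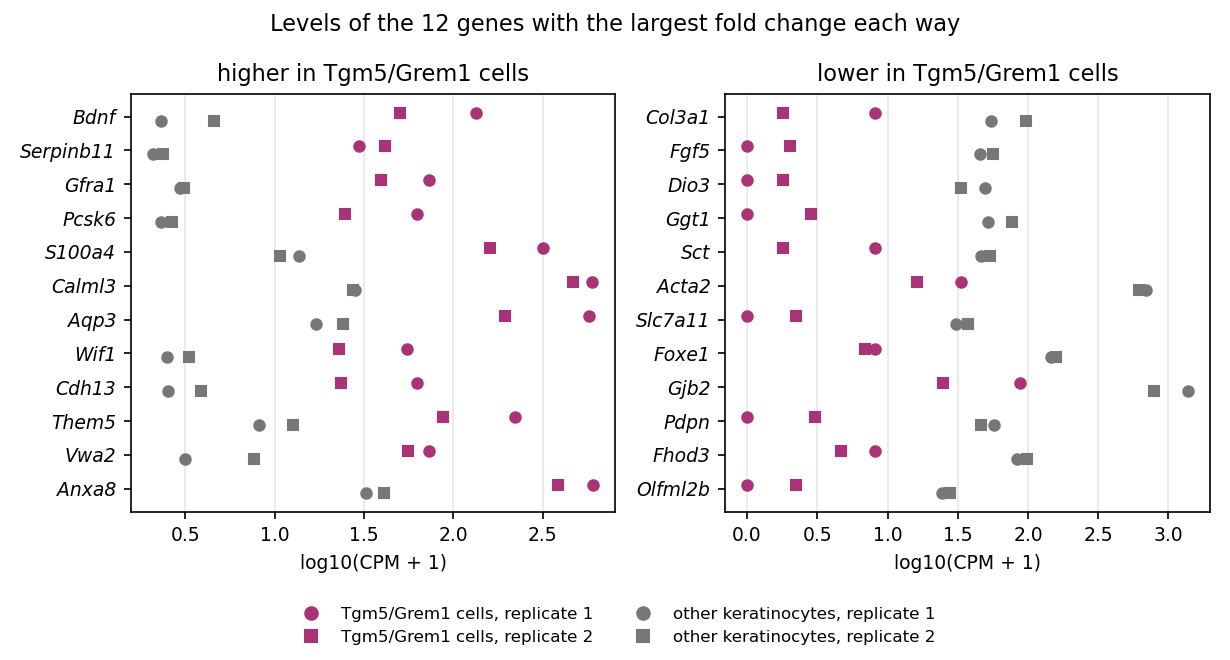
Levels, as log10 of CPM + 1, of the 12 genes with the largest fold change upward (left panel) and downward (right panel) in Tgm5/Grem1 cells (purple, upper row of each gene) and other keratinocytes (grey, lower row), with circles for replicate 1 and squares for replicate 2. In each gene both purple points lie on the same side of both grey points, which the choice of genes favours.

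Of 18 genes listed for bulge stem cell identity, 6 were higher and 1 lower, with a median log2 fold change of 0.40 beside -0.05 over all genes tested. For this list and those below, the shares over all genes tested were 3.36% higher and 5.83% lower. Krt15 stood at 14663 and 14463 CPM in Tgm5/Grem1 cells and 3152 and 4225 CPM in other keratinocytes (log2 1.99 ± 0.15, adjusted p = 1.47e-34). Cd34 stood at 238 and 235 CPM in Tgm5/Grem1 cells and 78.3 and 71.2 CPM in other keratinocytes (log2 1.67 ± 0.28, adjusted p = 1.30e-07). Both genes were higher in each library by a similar ratio. The quiescence factors showed wider ratios. Nfatc1 stood at 202 and 79.6 CPM against 7.75 and 11.01 CPM (log2 3.68 ± 0.31, with ratios of 4.71 and 2.85 in the libraries), and Foxc1 at 151 and 51.01 CPM against 10.1 and 11.3 CPM (log2 2.93 ± 0.31, ratios 3.92 and 2.18). Lhx2, a homeobox factor of follicle stem cells, was higher by 0.93 ± 0.26 and Postn, which encodes the matrix protein periostin, by 1.91 ± 0.27. Tcf7l1, a repressor of WNT targets in these stem cells, was lower (-1.15 ± 0.35, adjusted p = 0.013). Lgr5, the R-spondin receptor, stood at 104 and 119 CPM against 102 and 127 CPM, Sox9 at 767 and 366 against 743 and 380.5 and Tbx1 at 213 and 240.4 against 194 and 203. None of these 3 passed the test (adjusted p = 0.99, 1 and 0.9), so the list did not move as a whole. With the mitochondrial limit at 5% the calls of Krt15, Cd34, Lhx2, Postn and Tcf7l1 were lost.

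WNT genes were among those higher in Tgm5/Grem1 cells. Of 22 tested, 11 were higher and 0 lower, with a median of 0.83. They were the ligands Wnt4 and Wnt7b, the receptors Fzd3, Fzd7, Lgr4 and Lgr6, the target and feedback genes Axin2 and Nkd1, and the secreted modulators Wif1, Sostdc1 and Dkk3. Sostdc1, which binds both BMP and WNT components, stood at 551 and 1070.03 CPM in Tgm5/Grem1 cells and 108 and 218 CPM in other keratinocytes (log2 2.32 ± 0.25). Wnt7b stood at 7.203 and 34.7 CPM against 2.02 and 5.76 CPM (log2 2.48 ± 0.42), with its replicate 1 value under the floor of 3 UMIs. Lgr6, an R-spondin receptor of the follicle, stood at 39.6 and 51.01 CPM against 2.04 and 11.6 CPM (log2 2.75 ± 0.39), and its call was lost without the library block. The list thus held both activating and inhibiting members among the higher genes. Against the other cells of cluster 4 (compared below), 3 of 16 WNT genes were higher, Lgr6, Wif1 and Wnt7b, and 0 lower. The shares over all genes tested there were 1.28% higher and 1.83% lower.

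Of 21 BMP and activin genes, 4 were higher and 5 lower, with a median of -0.11. The ligand Bmp2 stood at 144 and 22.4 CPM in Tgm5/Grem1 cells and 3.24 and 8.76 CPM in other keratinocytes (log2 3.19 ± 0.38), with a ratio of 5.49 in replicate 1 and 1.36 in replicate 2, and its call was lost without the library block. The BMP antagonist Nog was higher by 3.44 ± 0.88 at 10.8 and 5.101 CPM against 0.282 and 0.69001 CPM, with its replicate 1 value at the floor of 3 UMIs. Bmp7 was higher by 1.501 ± 0.41, and Fst, which binds activin, by 1.94 ± 0.24. Lower were Id1 and Id4, targets of BMP signalling (-0.81 and -0.95), the activin subunits Inhba and Inhbb (-2.37 and -2.06) and Fstl1 (-1.25). Bmp6, a bulge BMP, stood at 18.01 and 1.22 CPM against 8.47 and 7.59 CPM and did not pass (adjusted p = 0.12). Against the other cells of cluster 4 (compared below), 0 of 19 BMP and activin genes were higher and 3 lower, Gdf10, Id4 and Inhbb.

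Of 15 FGF genes, 2 were higher and 6 lower, with a median of -0.92. Besides Fgf5, the lower genes were the ligand Fgf2 (-4.71), the response genes Etv4, Etv5 and Dusp6 (-1.36, -1.27 and -1.35) and the feedback inhibitor Spry1 (-1.33). Fgf18, a bulge signal that holds the follicle at rest in mouse, stood at 10.8 and 6.12 CPM against 1.36 and 1.21 CPM (log2 2.51 ± 0.696). Its replicate 1 value lay at the floor of 3 UMIs. Fgf1 was higher by 2.75 ± 0.66. In hedgehog signalling 3 of 9 were higher and 0 lower, with a median of 0.59. These were the ligand-binding receptors Boc (1.45 ± 0.32) and Cdon (2.07 ± 0.4998) and the inhibitor Hhip (1.996 ± 0.53, with ratios of 6.04 and 1.41 in the libraries). In the Notch list 0 of 11 were higher and 2 lower, namely the ligand Dll1 (-1.64 ± 0.47) and the receptor Notch3 (-1.88 ± 0.51), with a median of -0.52. Of 16 TGF-beta and YAP genes 4 were higher, Ctgf (3.13 ± 0.295), Tgfbi, Tgfb2 and Tgfb3, and 4 were lower, Tgm2, Tgfbr3, Axl and Tnc, with a median of -0.27. Against the other cells of cluster 4 (compared below), 0 of 9 FGF and 0 of 8 Notch genes tested passed in either direction. There 1 of 8 hedgehog genes was higher, Hhip, and of 15 TGF-beta and YAP genes 2 were higher and 1 lower.

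Signals for nerve and muscle formed the list with the highest median. Of 10 genes tested of 23 listed, 5 were higher and 2 lower, with a median of 0.96. Acetylcholine receptors and transporters were mostly under the expression filter and gave no test. Ntf3, the neurotrophin-3 gene, stood at 18.01 and 7.75 CPM in Tgm5/Grem1 cells and 0.822 and 0.828 CPM in other keratinocytes (log2 3.63 ± 0.69). Npnt, which encodes nephronectin, the matrix protein that anchors the arrector pili muscle in mouse, stood at 137 and 235 CPM against 18.9 and 36.4 CPM (log2 2.76 ± 0.303, adjusted p = 1.81e-17). Both genes were higher in each library. Bdnf and Gfra1, also higher, are described above. Lower were Ngfr, the low-affinity neurotrophin receptor (-1.63 ± 0.49), and Egln3 (-1.72 ± 0.39). Against the other cells of cluster 4 (compared below), 2 of 8 genes of this list were higher, Bdnf and Gfra1, and 0 lower. Npnt and Ntf3 did not pass there, and Npnt was among the leading genes of cluster 4 as a whole.

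The adhesion lists were split. Of 21 hemidesmosome and basement membrane genes, 4 were higher and 6 lower, with a median of -0.07. Col17a1, the hemidesmosomal collagen, stood at 681 and 482 CPM in Tgm5/Grem1 cells and 159 and 177 CPM in other keratinocytes (log2 1.76 ± 0.25, adjusted p = 2.40e-10). Col7a1 of the anchoring fibrils was higher by 2.28 ± 0.38, the laminin gene Lamb3 by 1.704 ± 0.31 and Egfl6, a basement membrane protein of the bulge, by 1.698 ± 0.33. Lower were the type IV collagen genes Col4a1 (-1.92) and Col4a2 (-1.79), the laminin genes Lamb1, Lamc1 and Lama5 and Nid1. Nid1 had 0 UMIs in Tgm5/Grem1 cells and was at least 6.61-fold lower, with a floor of 3 UMIs over both libraries. Among 16 cadherin and desmosome genes 1 was higher, Dsg3, and 2 were lower, Cdh3 and Dsg2, beside 3.36% higher and 5.83% lower among all genes tested. So few calls are not read as a result about this list.

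Smooth muscle contractile genes had the lowest median of the pathway lists, -2.52, and 10 of 11 tested were lower. Tagln, which encodes transgelin and was among the leading genes of cluster 6, stood at 93.6 and 59.8 CPM in Tgm5/Grem1 cells and 1462 and 1704 CPM in other keratinocytes (log2 -4.49 ± 0.26, adjusted p = 9.17e-60). Myl9 stood at 32.4 and 22.04 CPM against 271 and 223 CPM, Tpm1 at 396 and 270.2 against 1211 and 1305 and Tpm2 at 191 and 88.1 against 608 and 459.7. The groups did not overlap in any of these genes, all of which had passed the test, so the separation adds no support. Against the other cells of cluster 4 (compared below), 2 of 9 contractile genes were lower, Tpm1 and Tpm2, with a median of -1.01. Markers of muscle and pericytes did not move in the same way in their sum, at 75.6 and 76.5 CPM in Tgm5/Grem1 cells and 77.7 and 84.5 CPM in other keratinocytes, with Rgs5, Kcnj8 and Myh11 at 0 in Tgm5/Grem1 cells of both libraries. Of those 6 markers 4 were tested, and Notch3 alone passed.

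Of 10 keratins tested, 2 were higher and 6 lower, with a median of -1.40. Krt6a stood at 277 and 120.4 CPM in Tgm5/Grem1 cells and 67.8 and 29.3 CPM in other keratinocytes (log2 2.03 ± 0.29), and Krt80 was higher by 2.73 ± 0.36. Lower were Krt75 of the companion layer, at 0 and 5.92 CPM against 55.5 and 33.02 CPM (log2 -2.78 ± 0.41), the simple-epithelial keratins Krt8, Krt18 and Krt19 (-3.09, -3.37 and -2.37), Krt79 (-1.74) and Krt17 (-0.53). Against the other cells of cluster 4 (compared below), 4 keratins of the list were tested and 0 passed. Of the 6 markers of the inner bulge and companion layer 2 were higher, Krt6a and Fgf18, and 2 lower, Krt75 and Timp3. Their summed level was 594 and 273 CPM in Tgm5/Grem1 cells and 827 and 574 CPM in other keratinocytes. In the inner root sheath and hair matrix list 4 of 9 were lower and 0 higher, and in the upper follicle and sebaceous gland list 6 of 9 were lower and 0 higher, among them Mgst1 (-3.33) and Lrig1 (-1.28).

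Among 17 genes of epidermal differentiation, 4 were higher and 4 lower, with a median of 0.09. The higher genes were Calml3, Krtdap (3.004 ± 0.31), Dmkn, which encodes dermokine (2.67 ± 0.22), and Sbsn, the suprabasin gene (1.21 ± 0.23). Dmkn stood at 2039 and 1741 CPM in Tgm5/Grem1 cells and 248 and 351 CPM in other keratinocytes. Lower were Ivl and Lor, which encode the cornified envelope proteins involucrin and loricrin, Grhl3 and Lypd3, at -3.14, -2.24, -2.85 and -1.2998. DESeq2 called 4 genes of this list higher and 1 lower. Against the other cells of cluster 4 (compared below), 3 of 10 were higher, Calml3, Dmkn and Krtdap, and 0 lower. Ivl, Lor and Grhl3 were not tested there.

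DESeq2 called fewer genes in each list below except the inner root sheath and hair matrix list, where both tools called 0 higher and 4 lower. It called 6 higher and 0 lower of the bulge list, 6 and 0 of the WNT list, 3 and 1 of the BMP list, 0 and 2 of the FGF list, 2 and 0 of the hedgehog list and 0 and 0 of the Notch list. It called 3 and 1 of the TGF-beta and YAP genes, 4 and 0 of the nerve and muscle signals, 4 and 3 of the basement membrane genes, 0 and 8 of the contractile genes, 2 and 5 of the keratins and 4 and 1 of the epidermal differentiation genes. Of the inner bulge and companion layer markers it called 1 and 2, of the inner root sheath and hair matrix markers 0 and 4 and of the upper follicle and sebaceous gland markers 0 and 3. In each list where edgeR called 0 genes in a direction DESeq2 also called 0, and at most 2 genes of such a list had an unadjusted p under 0.05 on that side.

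**Figure D5:**
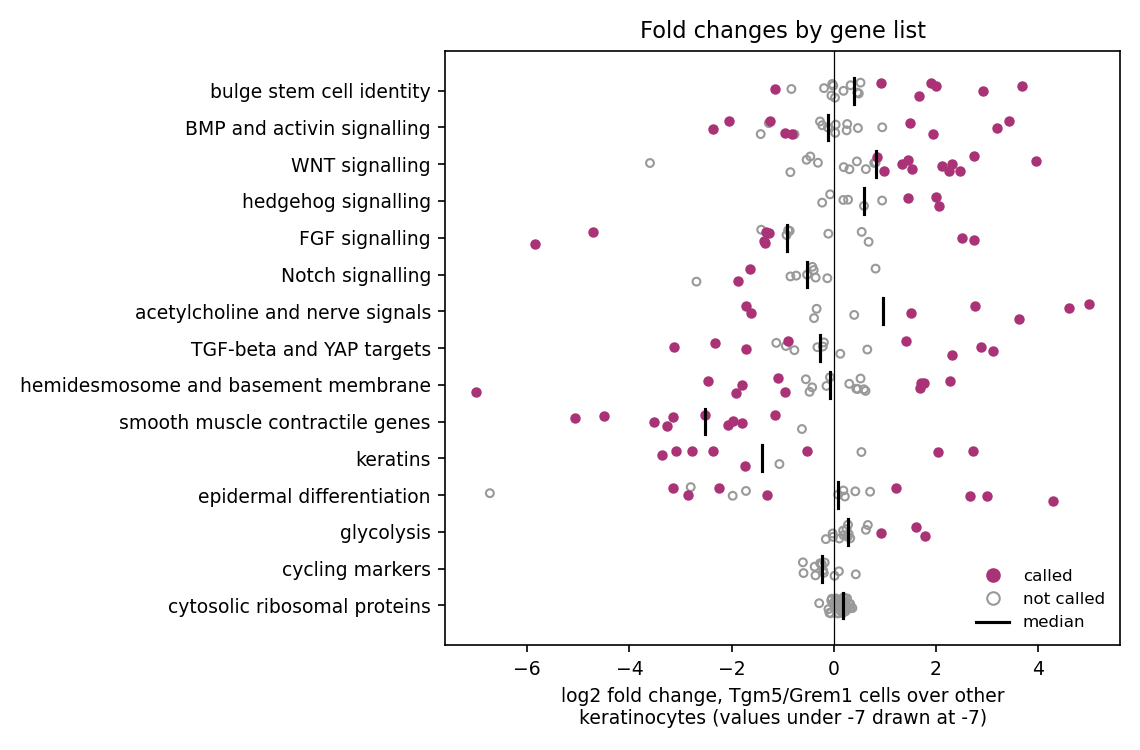
Log2 fold change of Tgm5/Grem1 cells over other keratinocytes (horizontal axis) for each tested gene of 15 lists (rows); filled points passed an adjusted p under 0.05, open points did not, and the black bar is the list's median. Vertical position within a row is spread at random for legibility. Smooth muscle contractile genes lie to the left with a median of -2.52, WNT genes lean to the right with 0.83, and ribosomal protein genes lie close to 0 with none called.

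After thinning, at least 3 of 12 cycling markers were detected in 5 of 27 Tgm5/Grem1 cells of replicate 1 (18.5%, 95% bounds 6.30 and 38.1) and in 138 of 381 of replicate 2 (36.2%, 31.4 and 41.3). Among other keratinocytes the shares were 40.4% (38.8 and 42.0) and 41.6% (39.6 and 43.6). Outside cluster 5 they were 12% and 5.66% in Tgm5/Grem1 cells and 39.9% and 36.1% in other keratinocytes. Cluster 4 as a whole had low shares, at 12% and 4.88% in its Tgm5/Grem1 cells and 7.49% and 2.5% in its other cells, while 77.4% and 71.002% of the cells of cluster 5 held at least 3 markers. The intervals of the Tgm5/Grem1 cells overlap between the libraries. In the test on summed UMIs 0 of the 12 markers passed with edgeR or with DESeq2, 2 of them had an unadjusted p under 0.05 in edgeR, both lower, and Mki67 stood at 86.4 and 116 CPM against 117 and 120.3 CPM (adjusted p = 0.9). Of 15 cell cycle inhibitors and G1 cyclins 3 were lower, Ccnd1 (-0.95 ± 0.27), Btg2 (-0.76 ± 0.22) and Cdkn2b (-2.57 ± 0.73), beside 5.83% lower among all genes tested. None was higher, and DESeq2 called 0 of these 3.

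The sort was for CD34, yet many kept keratinocytes had no Cd34 UMI, so the comparison was repeated among cells with at least 1. This left 19 and 284 Tgm5/Grem1 cells and 1752 and 1112 other keratinocytes. Of 11690 genes tested 415 were higher and 686 lower, 9.42% of them (3.55% higher, 5.87% lower), and 369 of the higher and 601 of the lower genes were also called in the whole set (88.9% and 87.6% of the genes called here). The 2 comparisons share cells. Serpinb11 had the largest fold change upward, at 24.6 and 56.03 CPM in Tgm5/Grem1 cells and 0.922 and 0.656 CPM in other keratinocytes (log2 5.79 ± 0.55), followed by Bdnf (4.82), Calml3 (4.82), Pcsk6 (4.695), Cdh13 (4.65) and Gfra1 (4.62). Rarres2, which encodes the chemoattractant chemerin, and the chemokine gene Cxcl2 had 0 UMIs in Tgm5/Grem1 cells, against 26.1 and 27.3 and 23.05 and 26.3 CPM in other keratinocytes. They were at least 29.4-fold and 26.9-fold lower, with a floor of 3 UMIs over both libraries. In kept cells under the Krt5 and Krt14 limit Rarres2 stood at 307 and 244 CPM and Cxcl2 at 1643 and 2104 CPM. What part of the level in other keratinocytes came from such cells was not tested. Col3a1, Col1a2, Fbln7 and Sct were also lower. The bulge transcription factors Nfatc1 (3.71 ± 0.34), Foxc1 (3.54 ± 0.34) and Lhx2 (0.996 ± 0.29) were higher among cells with Cd34 too, and among the 12 cycling markers Cenpf, Hmgb2 and Ube2c were lower, 0 of which DESeq2 called. Without cluster 5 the counts were 755 and 1057, and with DESeq2 213 and 239.

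To set Tgm5/Grem1 cells against cells of the same cluster, those of cluster 4 (27 and 222) were compared with the other cells of cluster 4 (315 and 133). This comparison was added after the clusters had been seen. Of 8683 genes tested 111 were higher and 159 lower, 3.11% of them (1.28% higher, 1.83% lower), but without the library block 6 and 5 passed and with DESeq2 48 and 65. Nrtn, which encodes the neurotrophic factor neurturin, stood at 295 and 575 CPM in Tgm5/Grem1 cells and 35.6 and 55.4 CPM in the other cells of the cluster (log2 3.21 ± 0.21, adjusted p = 2.03e-04). Gnmt, the glycine methyltransferase gene, which was among the leading genes of cluster 1, stood at 12.4 and 15.9 CPM against 778 and 536 CPM (log2 -5.28 ± 0.27, adjusted p = 4.37e-05). The groups did not overlap in either gene, which the choice of genes favours.

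Bdnf, Wif1 and Cdh13 were higher within cluster 4 as well, by 3.60001, 4.67 and 3.74 on the log2 scale, as were Robo2, a SLIT receptor (3.65), and Aspn, which encodes the matrix protein asporin (3.54). Lower genes were Stk39, a kinase of ion transport (-5.34), Itih5 (-4.68), the chemokine gene Ccl2 (-4.31), the protease gene Pappa (-3.81) and Pcp4, with 0 UMIs in Tgm5/Grem1 cells and at least 19.3-fold lower. In kept cells under the Krt5 and Krt14 limit Ccl2 stood at 4126 and 2092 CPM and Itih5 at 380 and 397 CPM. Of the bulge list 5 of 18 were higher, among them Cd34 at 253 and 451 CPM against 88.2 and 126 CPM (log2 1.69 ± 0.195) and Krt15 at 15279 and 25623 against 4876 and 12384 CPM (1.34 ± 0.27), with Nfatc1 (1.57), Foxc1 (1.18) and Postn (1.303), and 0 were lower. Of the genes higher here 92 of 111 (82.9%) were higher against all other keratinocytes too, and the 2 comparisons share the Tgm5/Grem1 cells. Col17a1 stood at 743 and 852 CPM in Tgm5/Grem1 cells of cluster 4 and 739 and 727 CPM in the other cells of that cluster, and it did not pass within the cluster.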

How the data were processed

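The deposited matrices hold UMI counts per gene and barcode of 2 libraries, whole numbers without scaling. Cell Ranger 3.1.0, mm10 and Seurat 3.1 are named by the submitters' processing notes, and the gene models used were not found in the labels. The rule, its 5 genes and all gene lists were chosen with earlier results of these data known, so list counts are descriptions.

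Kept keratinocytes were sorted into Tgm5/Grem1 cells and others, and raw UMIs were summed per class and library. The sums were tested with edgeR 4.0.16 (R 4.3.3; quasi-likelihood test, two-sided, TMM, filterByExpr, library as block, Benjamini-Hochberg over all genes tested), with DESeq2 1.42.0 as an alternative. Both classes come from the same library, which makes the library a pair by construction. The scripts were tested on simulated data. CPM are UMIs scaled to a sum of 1000000 per class and library. A count of 0 allows up to 3 counts. Shares have exact 95% Clopper-Pearson intervals, which, like the floors, cover counting error only. Free RNA in the droplets was not removed.

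Clusters came from 2000 variable genes without the rule genes, scaled within each library, 30 principal components, 20 neighbours and Leiden resolution 0.5 (leidenalg 0.10.2, scikit-learn 1.9.0). Doublet scores came from Scrublet in scanpy 1.11.5, and the highest-scoring 0.8% of cells per 1000 barcodes were candidates, left in unless stated. Coordinates are from GENCODE M21 (GRCm38) and promoter stretches, matched for all 5 rule genes, from RefSeq (GRCm38.p6).

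Genes named from the comparison with all other keratinocytes were the 12 with the largest log2 fold change in each direction among those called, with the same direction in both libraries and at least 20 CPM in the higher class of both, up to 4 called genes per list by size, and a fixed set of bulge genes; of the cells with Cd34, the 6 largest each way. Further called members of a list are named, apart from some that are not reported here. The comparison within cluster 4, and all values without cluster 5, were chosen after seeing the data. Alternatives were the normalization, filter, tool, block, thinning to 5000 UMIs, at least 3 rule genes, doublet candidates, a 5% mitochondrial limit, cells without cycling markers and cells without fibroblast collagen UMIs.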

Additional observations from a re-analysis of the deposited data

Results flagged for a closer look

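Barcodes left out by the filters also carried the rule genes in replicate 2, which places them here because no comparison above uses them. Among barcodes that reached 2 UMIs of Krt5 and Krt14, 691 of replicate 2 had under 1000 genes, of which 77 (11.1%, exact 95% interval 8.89 to 13.7) held at least 2 of the 5 genes, at a median of 1433 UMIs, against 1 of 594 in replicate 1. Another 470 of them had at least 1000 genes and over 10% mitochondrial UMIs, of which 100 (21.3%, 17.7 to 25.3) held at least 2, at a median of 3486 UMIs, against 3 of 1033 in replicate 1. In barcodes of replicate 2 with under 1000 genes that missed the Krt5 and Krt14 limit the count was 12 of 852 (1.41%), at a median of 969.5 UMIs. These counts use the rule genes themselves and are a description, and the part of free RNA, which was not removed, was not tested.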

How the results depend on the processing

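Against all other keratinocytes, counts of higher and lower genes (434 and 753) moved by over 1.5 times with DESeq2 (235 and 286), without the replicate block (213 and 346), with a mitochondrial limit of 5% (268 and 467) and without cluster 5 (814 and 1139), and against other keratinocytes with 0 cycling markers the lower genes numbered 459. Among cells with Cd34 (415 and 686) they moved with DESeq2 (213 and 239), after thinning (269 and 400), against cells with 0 cycling markers (117 and 272) and without cluster 5 (755 and 1057). Within cluster 4 (111 and 159) they were 176 and 321 with no expression filter, 48 and 65 with DESeq2, 6 and 5 without the replicate block, and 287 lower with at least 3 rule genes. Some settings also leave smaller groups, and the cause of these shifts was not tested. Of the named genes of the first comparison, 32 lost their call with DESeq2, 35 with the 5% limit, 30 without the replicate block and 24 after thinning.

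Mki67 reversed to 10.37 against other keratinocytes with 0 cycling markers, by construction, since Mki67 is one of the markers that chose them. With a library left out no residual degrees of freedom remain, so no test was made. Within single libraries the sign differed from the joint fit in 46 (replicate 1) and 2 (replicate 2) of 1187 called genes, in 31 and 1 of 1101 with Cd34 and in 0 and 0 of 270 in cluster 4.

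The share of Tgm5/Grem1 cells was 0.208%, 0.299% and 0.385% in replicate 1 with at least 3 genes, a 5% limit and thinning, and 6.29%, 8.60% and 9.51% in replicate 2 with at least 3 genes, thinning and outside cluster 5. The cycling share in Tgm5/Grem1 cells was 0% with at least 3 rule genes and 40.7% with at least 2 markers in replicate 1. In replicate 2 it was 19.8% with at least 3 rule genes, 44.8% unthinned, 50.4% with at least 2 markers and 5.66% without cluster 5. In other keratinocytes it was 54.0% unthinned and 60.7% with at least 2 markers in replicate 1, and 54.0%, 61.2% and, without cluster 5, 36.1% in replicate 2.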

Other observations

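Of 16 glycolysis genes, 3 were higher in Tgm5/Grem1 cells and 0 lower, with a median log2 fold change of 0.28 beside -0.05 over all genes tested. These were the hexokinase genes Hk1 (1.79 ± 0.39) and Hk2 (1.61 ± 0.32) and Slc2a1, which encodes a glucose transporter (0.92 ± 0.31), whose call was lost under 7 of the alternatives. Of 24 immediate early genes 4 were higher, Klf4 (1.57 ± 0.22), Klf2 (1.64 ± 0.302), Fosb (0.91 ± 0.22) and Dusp1, and 1 was lower, Ier5 (-1.57 ± 0.305). Klf4 stood at 1804 and 849 CPM in Tgm5/Grem1 cells and 423 and 408 CPM in other keratinocytes. Within cluster 4, 0 of the 24 were higher and 4 were lower, Fosl1, Ier5, Maff and Socs3, with a median of -0.47. The share lower over all genes tested there was 1.83%. Among 44 ribosomal protein genes 0 passed in either direction with edgeR or DESeq2, 1 had an unadjusted p under 0.05 in edgeR, and their median was 0.18.

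Mitf, the melanocyte transcription factor, was higher in Tgm5/Grem1 cells at 21.6 and 20.8 CPM against 2.6996 and 3.42 CPM (log2 2.71 ± 0.43). The 6 melanocyte markers, Mitf included, summed to 32.4 and 31.2 CPM in Tgm5/Grem1 cells and 19.6 and 14.8 CPM in other keratinocytes. Of these markers 4 were tested, and Mitf alone passed. Tyr and Tyrp1 had 0 UMIs in Tgm5/Grem1 cells of both libraries and were not tested. Tyr was also at 0 in other keratinocytes of replicate 2. The IGF-binding genes Igfbp6 and Igfbp7 were lower (-1.53 ± 0.401 and -1.31 ± 0.24), as were Isg15 and Tap2 of the interferon and MHC class I list (-3.15 ± 0.48 and -1.25 ± 0.35), with 0 of that list higher. Within cluster 4 the median of that list was 0.09, Tap2 did not pass and Isg15 was not tested, and edgeR called 3 of its 11 tested genes higher, of which DESeq2 called 0. B2m stood at 519 and 259 CPM in Tgm5/Grem1 cells and 233 and 156 CPM in the other cells of the cluster (log2 0.93 ± 0.202), H2-K1 at 622 and 256 against 278 and 153 CPM (0.95 ± 0.2001) and Psmb8, an immunoproteasome gene, at 53.9 and 23.6 against 17.03 and 6.15 CPM (1.77 ± 0.37). Igfbp5 was higher there too, at 212 and 139 against 35.9 and 12.3 CPM (2.93 ± 0.27). Of 10 heat shock genes 1 was lower with edgeR and 0 with DESeq2, beside 5.83% of all genes tested lower with edgeR. It was Hspa5 (-0.802 ± 0.23).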
